A study of Mus musculus with 8 samples.

Results

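Ptgds and 8 genes that carry, make, break down or sense retinoids were followed in the deposited tables of 23278 genes: Crabp1, Crabp2, Rbp4, Aldh1a1, Aldh1a2, Aldh1a3, Cyp26b1 and Rarb. Ptgds and Crabp1 were picked because they were higher in the white matter of SMA mice than of WT mice, so their values in that comparison describe the choice and carry no test. The other 7 were picked for their role in retinoid handling. Of the 9 genes, 8 reached 1 RPKM (reads per kilobase of gene, scaled to library size) in at least 2 libraries and were tested among 13948 such genes. Aldh1a3 did not.

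In spinal muscular atrophy (SMA) motor neurons degenerate when the SMN protein is short, and the mice were sampled before symptoms. The study holds 8 libraries in 4 groups of 2: motor neurons of the ventral horn, and white matter near them, each from WT mice and from SMA mice of the genotype SMN2+/+;SMNΔ7+/+;Smn-/-. SMA mice thus lacked mouse Smn and carried the human SMN2 gene and the SMNΔ7 transgene. All mice were FVB/N at postnatal day 1, and all tissue was lumbar spinal cord taken by laser capture from sections of 8 µm stained with hematoxylin, so cells were chosen by form and position and not by a marker gene. No animals are named in the labels. The p-values therefore cover the spread between libraries alone, and whether both regions came from the same mice is unknown. In every group replicate 1 had Xist at 12.6 RPKM or more and Ddx3y at 0, and replicate 2 had Xist at 0.0581 RPKM or less and Ddx3y at 0.628 or more, so the libraries of a group came from mice of different sex. A value of 0 means that a gene was listed at 0, not that its RNA was absent. Smn1 read 2.93 to 14.3 RPKM in the 4 WT libraries and 0 in the 4 SMA libraries.

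Retinol travels in blood bound to Rbp4 and is oxidized inside cells to retinal and then to retinoic acid, the last step by the Aldh1a enzymes. Retinoic acid is bound in the cytosol by Crabp1 and Crabp2, is broken down by Cyp26 enzymes, and switches genes on through nuclear receptors such as Rarb, whose own gene is a known target. In the developing spinal cord retinoic acid takes part in setting motor neuron identity, and the meninges and some motor neurons are known to express Aldh1a2. Ptgds is a secreted lipocalin that makes prostaglandin D2 and also binds small lipophilic molecules, retinoids among them. Meninges, choroid plexus and oligodendrocytes are its known sources in the nervous system.

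Promoter windows from RefSeq (GRCm38.p6, reference strain) were found for 7 of the 9 genes, 9 windows in all, each running from 250 bases before to 50 bases after a gene start. They were searched on both strands for DR1, DR2 and DR5 retinoic acid response elements, the direct repeats named for the bases between their repeated units. Only the Rarb window held a match, a DR5 that starts 53 bases before the gene start. Among 32851 mouse windows of 300 bases, 0.0974% held a DR5, 0.222% a DR1 and 0.268% a DR2, and no window held more than 1 kind. The 250 bases before the start are shown for Rarb, with the DR5 in capitals, at chr14:16575477-16575726 on the minus strand. They are also shown for the 2 genes with the white matter pattern, Ptgds at chr2:25469750-25469999 on the minus strand and Crabp1 at chr9:54764498-54764747 on the plus strand, neither of which held a match. A match is a description of letters in the window and was not tested as a site.
Rarb: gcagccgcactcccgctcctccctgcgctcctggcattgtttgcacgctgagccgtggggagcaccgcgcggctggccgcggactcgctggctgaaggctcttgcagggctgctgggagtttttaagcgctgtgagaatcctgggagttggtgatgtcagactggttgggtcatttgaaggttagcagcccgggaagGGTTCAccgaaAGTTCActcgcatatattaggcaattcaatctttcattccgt
Ptgds: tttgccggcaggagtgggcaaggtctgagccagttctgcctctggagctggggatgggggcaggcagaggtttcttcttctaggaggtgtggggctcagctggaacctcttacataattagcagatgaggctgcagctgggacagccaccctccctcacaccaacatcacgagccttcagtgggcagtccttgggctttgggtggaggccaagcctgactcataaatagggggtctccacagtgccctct
Crabp1: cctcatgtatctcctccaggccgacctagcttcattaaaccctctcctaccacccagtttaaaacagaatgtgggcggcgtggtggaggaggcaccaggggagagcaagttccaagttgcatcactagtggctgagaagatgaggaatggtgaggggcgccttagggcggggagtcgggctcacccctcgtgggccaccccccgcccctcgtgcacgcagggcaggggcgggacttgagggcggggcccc

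In white matter Ptgds stood far above its WT level in both SMA libraries, and Crabp1 did so by a smaller step. In motor neurons Crabp1 was among the most abundant transcripts in both genotypes. Mean Ptgds there was at percentile 52.2 of tested genes in WT and 69.3 in SMA. Ptgds read 14.1 and 15.8 RPKM in WT white matter (989 and 1228 reads) and 174 and 202 RPKM in SMA white matter (13533 and 16722 reads). In motor neurons it read 6.54 and 6.28 RPKM in WT and 18.4 and 5.61 RPKM in SMA. The SMA white matter libraries were thus apart from the other 6, and among those 6 the SMA motor neuron pair spanned the WT white matter pair. Mean Ptgds was 187.9 ± 20.0 RPKM (SD, n = 2) in SMA white matter and 14.95 ± 1.16 (SD, n = 2) in WT white matter, 12.6-fold apart. That took it from the 79.9th to the 99.0th percentile of tested genes.

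Crabp1 was read at 199 and 160 RPKM in WT motor neurons, 268 and 273 in SMA motor neurons, 11.9 and 11.8 in WT white matter and 26.8 and 32.1 in SMA white matter. No group overlapped another, with SMA motor neurons highest, then WT motor neurons, SMA white matter and WT white matter. The white matter means were 29.5 ± 3.76 in SMA and 11.9 ± 0.0424 RPKM in WT (SD, n = 2 each), 2.49-fold apart. With the fit on log2(RPKM + 1), a scale that understates changes at low values, the white matter difference was 3.56 ± 0.43 (SE) for Ptgds and 1.24 ± 0.23 for Crabp1. Ptgds had the smallest p of all 13948 genes in that comparison and Crabp1 was at rank 6. These ranks restate the choice of the genes.

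**Figure D1:**
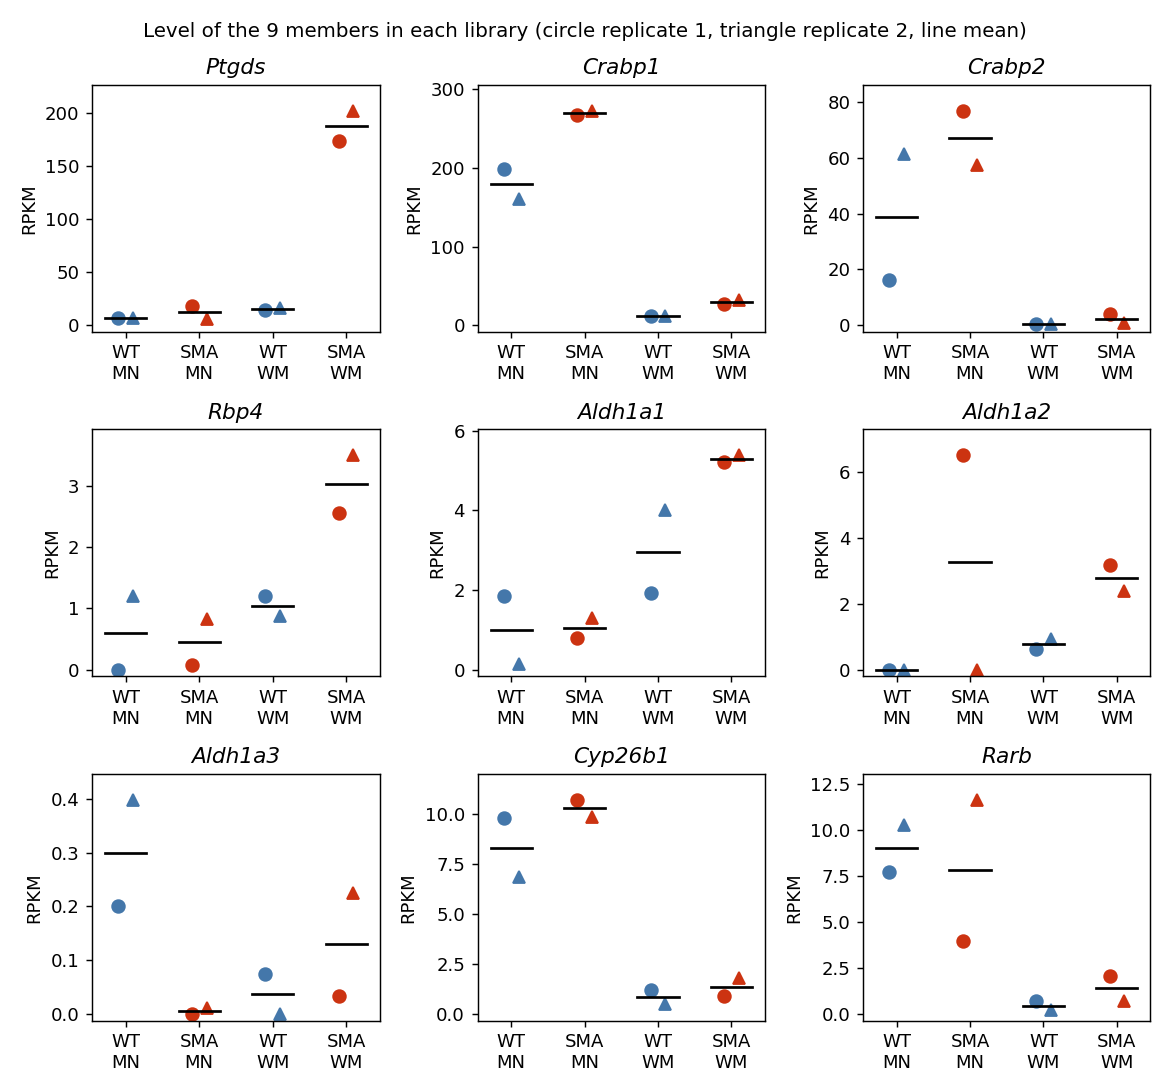
Level in RPKM (vertical axis, linear, its own range in each panel) of the 9 genes in WT and SMA motor neurons (MN) and white matter (WM); circles are replicate 1, triangles replicate 2 and lines the mean of 2. Ptgds reaches 174 and 202 RPKM in SMA white matter and stays at or below 18.4 in the other 6 libraries, while Crabp1, Crabp2, Cyp26b1 and Rarb are highest in motor neurons.

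The whole white matter comparison leaned upward on the deposited scale: the median log2 difference over all tested genes was 0.27, and 80.0% of genes were above 0. Taken relative to that median, the difference was 3.29 for Ptgds and 0.97 for Crabp1. The lean was -0.05 for SMA against WT in motor neurons. Between regions, motor neurons minus white matter, it was 0.08 in WT and -0.24 in SMA. Tests were made with limma and Benjamini-Hochberg adjustment at a threshold of 0.05 over all tested genes. In white matter SMA against WT called 0 of the 8 tested members against a background of 0.0%. At an unadjusted p under 0.05 it took in 2 members, Ptgds and Crabp1, and 880 genes, and voom on the reads recovered from the RPKM values called 1 member, Ptgds. Ptgds was chosen on this comparison, so its call describes the choice and is no test. Its log2 difference was 3.24 to 3.67 over the 18 alternative settings. With the replicate block it was not called (limma adjusted p = 0.469).

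The remaining carriers, Crabp2 and Rbp4, stayed at or below 4.03 RPKM in white matter. Crabp2, which hands retinoic acid to its nuclear receptors, was read at 0.460 and 0.414 RPKM in WT and 4.03 and 0.648 in SMA white matter. Both SMA values lay above both WT values, but a single library made most of the gap, with 351 reads against 36 to 60 in the other 3. The log2 difference was 1.00 ± 0.64 (limma adjusted p = 0.757). Rbp4, the retinol carrier of blood, was read at 1.203 and 0.873 RPKM in WT and 2.56 and 3.50 in SMA white matter. Here too the groups did not overlap, by 105 and 130 reads against 308 and 447, with a log2 difference of 0.98 ± 0.45 (limma adjusted p = 0.741).

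Among the enzymes that make retinoic acid, Aldh1a1 was read at 1.91 and 4.02 RPKM in WT and 5.21 and 5.39 in SMA white matter. The groups did not overlap, though the upper WT library lay nearer to the SMA pair than to the other WT library. Its log2 difference was 0.72 ± 0.48 (limma adjusted p = 0.762). Aldh1a2 was read at 0.635 and 0.945 RPKM in WT and 3.19 and 2.40 in SMA white matter, 3.54-fold apart in the means, with 125 and 207 against 699 and 559 reads. The log2 difference was 1.08 ± 0.74 (limma adjusted p = 0.762). Aldh1a2 reached 1 RPKM only in 3 SMA libraries, so it entered the test through the group where it was high. Aldh1a3 was near the floor everywhere, at 0.0745 and 0 RPKM in WT and 0.0334 and 0.226 in SMA white matter, and was not tested.

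The enzyme and receptor at the end of the pathway were near 1 RPKM in white matter. Cyp26b1, which breaks retinoic acid down, was read at 1.202 and 0.524 RPKM in WT and 0.899 and 1.80 in SMA white matter, and the groups overlapped (log2 difference 0.33 ± 0.37, limma adjusted p = 0.858). Rarb was read at 0.693 and 0.216 RPKM in WT and 2.10 and 0.743 in SMA white matter. Its groups were apart by a narrow margin, with a log2 difference of 0.70 ± 0.50 (limma adjusted p = 0.770). Without Ptgds and Crabp1, 5 of the 6 other tested members had both SMA white matter libraries above both WT ones, in a comparison where 39.7% of all tested genes did. After median-of-ratios scaling, which removes the upward lean, 4 of the 6 did, against 15.2% of all genes. Rarb was the gene lost. With 2 libraries a group these counts carry no test, and Aldh1a2 entered through its own high values.

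In motor neurons SMA against WT called 0 of 8 members, against a background of 0.0%, and voom called 0 as well. At an unadjusted p under 0.05 limma took in 1 member, Crabp1, and 609 genes in all. Without SMA motor neuron replicate 1 it called 122 genes and still 0 members. Crabp1, at 179.8 ± 27.4 RPKM in WT and 270.4 ± 3.64 in SMA motor neurons (SD, n = 2 each), had both SMA libraries above both WT libraries. Its log2 difference was 0.59 ± 0.23 (limma adjusted p = 1.0). Cyp26b1 was likewise apart, at 9.79 and 6.86 RPKM in WT and 10.7 and 9.86 in SMA, but the margin between the nearest libraries was small and the log2 difference was 0.29 ± 0.37 (limma adjusted p = 1.0). On the deposited scale, both libraries of SMA above both of WT was found in 12.7% of all tested genes here.

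On the deposited scale the other members overlapped between genotypes in motor neurons, except the untested Aldh1a3. After median-of-ratios scaling Ptgds and Crabp2 also had both SMA libraries above both WT ones, so their order depended on the scale. Before scaling, the lower SMA value of Ptgds, 5.61 RPKM, lay below both WT values, 6.54 and 6.28. No share of all genes is given for the scaled values here, so this is a description. Crabp2 was read at 16.1 and 61.5 RPKM in WT and 77.1 and 57.5 in SMA, so the lower WT library stood apart from the other 3 (log2 difference 1.05 ± 0.64, limma adjusted p = 1.0). Rarb was read at 7.74 and 10.3 RPKM in WT and 3.99 and 11.7 in SMA. Its log2 difference of -0.32 ± 0.50 (limma adjusted p = 1.0) was 0.35 without SMA motor neuron replicate 1. Rbp4 was at 0 and 1.19 RPKM in WT and 0.0788 and 0.820 in SMA. Aldh1a1 was at 1.84 and 0.133 RPKM in WT and 0.789 and 1.30 in SMA. Neither Rbp4 nor Aldh1a1 kept the sign of its motor neuron difference when single libraries were left out. Aldh1a3 was at 0.2003 and 0.398 RPKM in WT and at 0 and 0.0107 in SMA (62 and 105 against 0 and 3 reads).

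Aldh1a2 differed between the SMA motor neuron libraries more than any group differed from another. It was read at 6.52 RPKM (1205 reads) in SMA motor neuron replicate 1 and at 0 in replicate 2, and at 0 in both WT motor neuron libraries, where 3 reads would have been 0.0146 and 0.0171 RPKM. The log2 difference of 1.46 ± 0.74 (limma adjusted p = 1.0) rested on that library and was 0.00 without it. Ptgds, too, was higher there, at 18.4 RPKM against 5.61 in replicate 2, and its log2 difference of 0.61 ± 0.43 (limma adjusted p = 1.0) became -0.16 without it. In the same library the summed level of 20 meninges and fibroblast markers was 115 RPKM, against 58.2 to 71.3 in the other 3 motor neuron libraries. Igfbp2 made up 58.2 RPKM of the 115. The collagen-binding proteoglycan Dcn, also on this list, was 6.77 RPKM there and 0.311 to 0.827 in the others, while 7 markers of the list, Dpp4 and Ogn among them, were at 0 there, against 6 to 10 in the other 3. Dcn was chosen after its values were seen. The pericyte sum (27.8 RPKM against 9.79 to 14.3) and endothelium sum (24.1 against 14.7 to 19.2) were also highest in that motor neuron library. So were, on the deposited scale, the sums for myelinating oligodendrocyte (135.5 against 50.8 to 90.5), oligodendrocyte precursor, astrocyte and microglia. The sums of the other lists were not highest there. After median-of-ratios scaling the oligodendrocyte precursor, astrocyte and microglia sums were highest in SMA motor neuron replicate 2 instead. The meninges and fibroblast, pericyte, endothelium and myelinating oligodendrocyte sums stayed highest in replicate 1. The part of the cells behind these markers in the result was not tested. The genes whose profile over the 8 libraries was most like that of Aldh1a2 were Gm505, Intu, Rbm6, Atxn7 and 2700097O09Rik (Pearson r of log2(RPKM + 1) from 0.967 to 0.983, n = 8). All 5 had their highest level in that library.

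Between regions several members passed the test. In WT, 4 of the 8 tested members were higher in motor neurons than in white matter and 0 lower, in a comparison that called 28.4% of all tested genes, 18.6% higher and 9.85% lower. Of those calls 65.4% were higher, a share that became 55.6% when libraries were scaled by the median of ratios and 51.7% when quantile normalized. Crabp1 was 15.2-fold higher (log2 difference 3.81 ± 0.23, limma adjusted p = 1.16e-05). The WT white matter libraries also served to choose Crabp1 and Ptgds, so the values of these genes here are not independent of the choice. Crabp2 was 88.8-fold higher (4.51 ± 0.64, limma adjusted p = 7.86e-04). The step from 0.460 and 0.414 to 16.1 and 61.5 RPKM left no overlap between regions despite the spread in motor neurons. Cyp26b1 was 9.65-fold higher (2.33 ± 0.37, limma adjusted p = 0.00156) and Rarb 19.9-fold higher (2.79 ± 0.50, limma adjusted p = 0.00278). Thus the cytosolic binders, the breakdown enzyme and the receptor were on the motor neuron side.

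None of the other tested members was called in WT. Ptgds was lower in both motor neuron libraries than in both white matter libraries, 2.33-fold in the means (log2 difference -1.10 ± 0.43, limma adjusted p = 0.0855). That adjusted p was under the threshold in 5 of 18 alternative settings, from 0.00291 without SMA motor neuron replicate 2 to 0.0245 after median-of-ratios scaling. Aldh1a1 was lower by 3.01-fold with no overlap (-1.09 ± 0.48, limma adjusted p = 0.120). Aldh1a2, at 0 in the WT motor neurons, had a log2 difference of -0.83 ± 0.74 (limma adjusted p = 0.441), and Rbp4 overlapped between regions (-0.46 ± 0.45, limma adjusted p = 0.492). The untested Aldh1a3 went the other way, with both WT motor neuron libraries above both WT white matter libraries (0.2003 and 0.398 against 0.0745 and 0 RPKM).

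In SMA mice 7 of the 8 members differed between regions, in a comparison that called 30.8% of tested genes, 13.6% higher and 17.2% lower in motor neurons. Higher calls made up 44.2% of all calls there, against 53.8% when scaled by the median of ratios and 51.7% when quantile normalized. Crabp1 was 9.18-fold higher in motor neurons (log2 difference 3.16 ± 0.23, limma adjusted p = 4.65e-05), Crabp2 28.8-fold (4.55 ± 0.64, limma adjusted p = 9.36e-04), Cyp26b1 7.62-fold (2.29 ± 0.37, limma adjusted p = 0.00197) and Rarb 5.51-fold (1.77 ± 0.50, limma adjusted p = 0.0240). These were the same 4 genes as in WT. Ptgds was 15.6-fold lower in motor neurons (-4.06 ± 0.43, limma adjusted p = 2.56e-04). Its region comparison uses the white matter libraries on which it was chosen, as does that of Crabp1, so it is not independent of the choice.

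Rbp4 and Aldh1a1 were the other members called lower in SMA motor neurons. Rbp4 was 6.74-fold lower (log2 difference -1.51 ± 0.45, limma adjusted p = 0.0310), and Aldh1a1 5.07-fold lower (-1.63 ± 0.48, limma adjusted p = 0.0292). Both calls changed with the setting: Rbp4 lost its call in 8 of 18 alternatives and Aldh1a1 in 7, voom among them (adjusted p = 0.111 and 0.0539). The Rarb call was lost in 4 (adjusted p up to 0.160). Without SMA white matter replicate 2 all 3 were lost, which left 4 members called. Aldh1a2 was not called (-0.46 ± 0.74, limma adjusted p = 0.662), but without SMA motor neuron replicate 1 it was at -1.92 (limma adjusted p = 0.00574) and without replicate 2 at 0.99 (limma adjusted p = 0.0871).

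**Figure D2:**
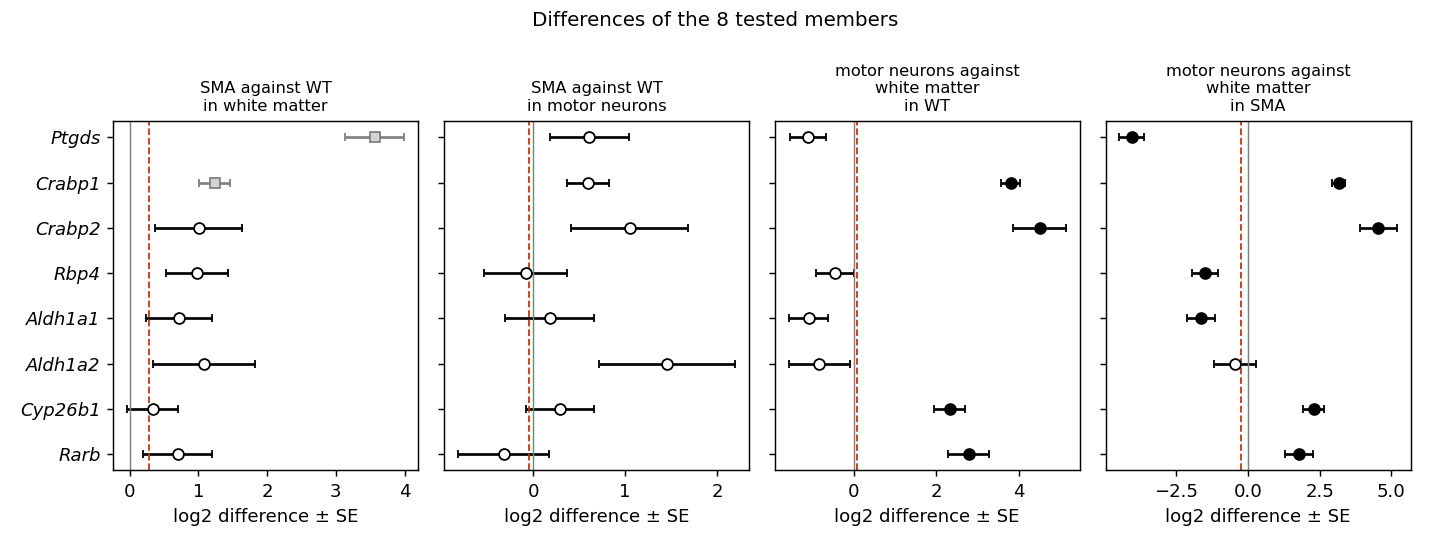
Log2 differences of RPKM + 1 with their SE (horizontal axis, its own range in each panel) for the 8 tested members in 4 comparisons; filled points passed limma's adjusted threshold of 0.05, open points did not, grey squares mark Ptgds and Crabp1 where they were chosen and not tested, and the dashed line is the median of all tested genes. Crabp1, Crabp2, Cyp26b1 and Rarb lie to the right in both region panels, and Ptgds, Rbp4 and Aldh1a1 pass on the left in the SMA panel.

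Whether the genotype difference itself differed between regions was tested as an interaction, the motor neuron difference minus the white matter difference. It called 0 of the 8 members against a background of 0.0%. Limma took in 1 member at an unadjusted p under 0.05, Ptgds, and 693 genes in all, and voom called 0 members. Without SMA motor neuron replicate 1 limma called 1 member, Ptgds (-3.73), and 17 genes in all. The Ptgds value, -2.95 ± 0.61, includes the contrast it was chosen on and is a description. So is that of Crabp1, -0.65 ± 0.32, or -0.31 relative to the median of all genes. The calls of Rbp4, Aldh1a1 and Ptgds in SMA and not in WT are therefore not shown to differ between genotypes.

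Markers of cell types known to express these genes were read in the same white matter captures. The summed level of the 20 meninges and fibroblast markers was 238 and 279.5 RPKM in WT and 606 and 456 RPKM in SMA white matter. All 13 tested markers of this list had a log2 difference above 0 in white matter, where 80.0% of all genes did, with a median of 1.18 against 0.27 over all tested genes. For 12 of the 13 both SMA libraries were above both WT ones, as for 39.7% of all genes, and for 9 after median-of-ratios scaling, as for 15.2%. At the same time 0 passed limma's adjusted threshold. Mgp, 1 of the 13, was at 0.596 and 0.777 RPKM in WT and 5.49 and 3.44 in SMA white matter. It reached 1 RPKM only in SMA white matter, so it entered these counts through its own high values. Among the 3 most abundant, Igf2 was at 44.5 and 58.3 RPKM in WT and 136 and 151.5 in SMA, Bgn at 76.2 and 76.8 against 140.5 and 101, and Igfbp2 at 31.9 and 29.3 against 64.1 and 34.1. The arachnoid transporters Slc6a13 (1.65 and 2.37 against 6.42 and 5.45 RPKM) and Slc13a4 (1.16 and 0.884 against 6.80 and 2.60) were low but apart. The ratio of SMA to WT was larger for Ptgds than for any of these values. The part of these cells in the result was not tested.

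Oligodendrocytes and choroid plexus are the other known sources of Ptgds. Myelinating oligodendrocyte markers summed to 4009 and 2094 RPKM in WT and 5057 and 2717 in SMA white matter, which overlapped, and 2 of 11 tested markers had both SMA libraries above both WT ones, against 39.7% of all genes. Choroid plexus and ependyma markers summed to only 1.56 to 2.87 RPKM in the 8 libraries, and Ttr, the abundant choroid plexus carrier of retinol-bound Rbp4, was at 0 in 7 libraries and at 0.135 RPKM in SMA white matter replicate 2. Pericyte markers (17.1 and 13.0 in WT, 39.0 and 26.8 RPKM in SMA white matter) and Schwann cell markers (11.7 and 6.12 against 44.7 and 26.6) were higher in both SMA libraries. Their part was not tested either. In such bulk captures, more cells of a type and more RNA per cell cannot be told apart. The labelled cell type held: 8 motor neuron markers summed to 566 to 715 RPKM in motor neuron captures and to 7.97 to 20.1 in white matter.

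**Figure D3:**
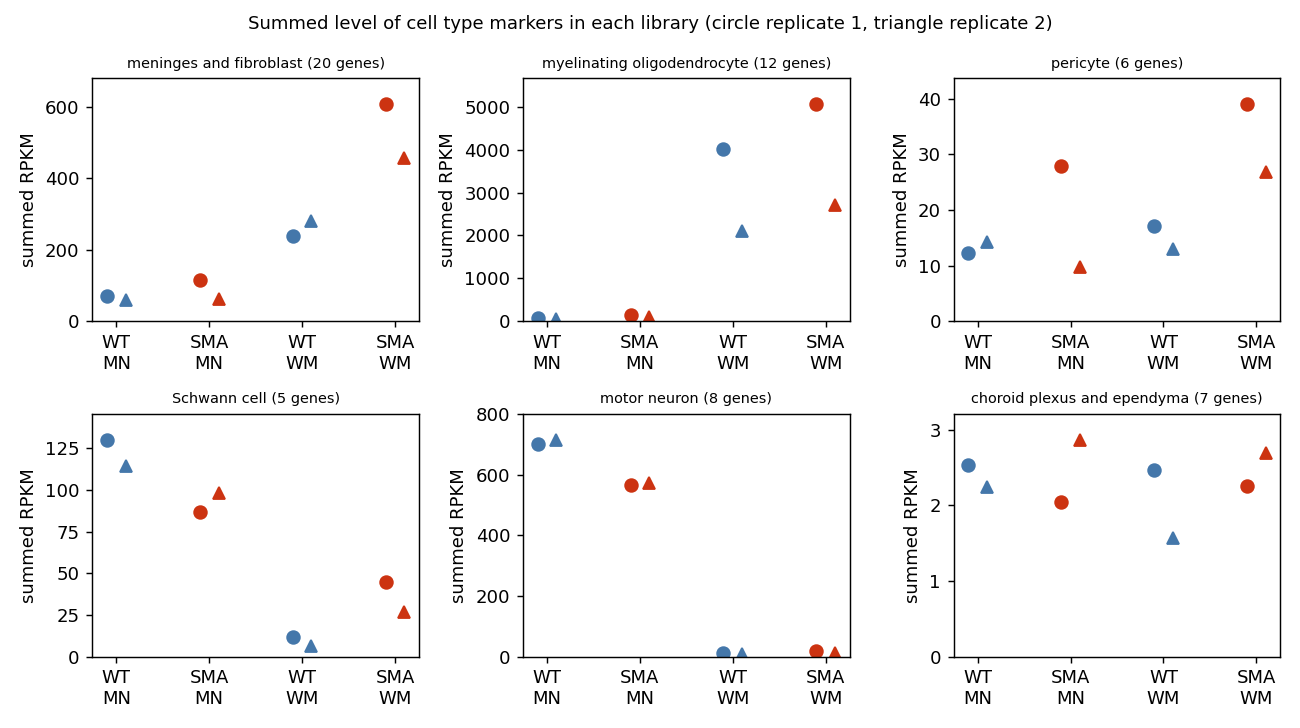
Summed RPKM (vertical axis from 0, its own range in each panel) of 6 cell type marker lists in the 8 libraries, WT and SMA motor neurons (MN) and white matter (WM); circles are replicate 1 and triangles replicate 2. Meninges and fibroblast markers reach 606 and 456 RPKM in SMA white matter against 238 and 279.5 in WT, whereas myelinating oligodendrocyte markers overlap there; the Schwann cell sum in motor neurons is mostly Ngfr.

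Around the members, 50 further genes of retinoid handling were read, 33 of them tested. In white matter SMA against WT called 0 of the 33 with limma and 31 had a difference above 0, where 80.0% of all tested genes did, with a median of 0.51 against 0.27 over all genes. Both SMA libraries were above both WT ones for 20 of the 33, against 39.7% of all genes, and for 12 after median-of-ratios scaling, against 15.2%. In motor neurons 0 were called as well, 15 were above 0 and the median was -0.01 against -0.05. None passed in the interaction. Transcripts of the pathway's textbook targets in white matter were all above 0 in the 7 tested, with a median of 0.81. Both SMA libraries were above both WT ones for 6 of the 7, and for 4 after median-of-ratios scaling. Rarres1 overlapped, at 0.481 and 1.011 RPKM in WT and 2.45 and 0.937 in SMA. Meis2 was apart by a narrow margin, at 10.75 and 11.7 against 15.2 and 11.9 RPKM. Rarres2, a retinoid-induced chemokine precursor, was at 4.88 and 4.19 RPKM in WT and 11.8 and 12.2 in SMA white matter (log2 difference 1.23, limma adjusted p = 0.727). Nr2f1, a nuclear receptor, was at 6.45 and 6.18 against 12.2 and 11.4 RPKM (0.81, limma adjusted p = 0.741). Tgm2, a transglutaminase, was at 0.506 and 0.236 against 1.66 and 2.06 RPKM (1.06, limma adjusted p = 0.727). The SMA and WT groups were apart for Rarres2, Nr2f1 and Tgm2, but no difference passed the test. Tgm2 reached 1 RPKM only in SMA white matter, so its place among the 7 and the 33 rests on its own high values.

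Between the WT regions 5 of the 33 were called higher and 4 lower in motor neurons, where 28.4% of all genes were called, a share near that of the list. Between the SMA regions 3 were called higher and 12 lower, where 13.6% and 17.2% of all genes were. Among the genes called, Rbp2 reached 1 RPKM only in motor neurons, and Adh1, Dhrs3, Rarres1 and Tgm2 only in white matter. They entered these counts through the group where they were high. Rbp2, a cellular retinol binder, was at 20.4 and 5.84 RPKM in WT motor neurons and 0 and 0.323 in WT white matter (log2 difference 3.39 ± 0.55, limma adjusted p = 0.00163). It was called higher in SMA too, as was Meis2, a homeobox target of retinoic acid. Nrip1, a corepressor, and Rdh13 were called higher in WT and not in SMA, and neither passed in the interaction.

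Lower in motor neurons in both genotypes were the retinol and retinal enzymes Adh1, Dhrs3 and Rdh5 and the corepressor Ncor1. Adh1, an alcohol dehydrogenase that oxidizes retinol, was at 2.27 and 1.66 RPKM in WT white matter and 9.002 and 4.05 in SMA white matter, and at most 0.610 in motor neurons (log2 difference between regions in WT -1.53 ± 0.41, limma adjusted p = 0.0214). Dhrs3, which turns retinal back to retinol, was at 2.55 and 1.98 in WT and 1.67 and 7.04 RPKM in SMA white matter, against at most 0.203 in motor neurons. In SMA, 8 further genes were called lower: Adh5, Dhrs4, Rara, Ppard, Tgm2, Nr2f1, Rarres1 and Rarres2. Tgm2 entered the test only through its SMA white matter values, the higher side of this comparison. Adh1, Dhrs3 and Rarres1 likewise entered it only through white matter libraries. Ppard, a receptor that can also be reached by retinoic acid through Fabp5, was at 9.83 and 9.04 RPKM in SMA white matter and 1.63 and 1.37 in SMA motor neurons (-2.07 ± 0.32, limma adjusted p = 0.00165), with WT at 4.12 and 3.02 in white matter and 3.64 and 4.43 in motor neurons. Fabp5 itself was at 7.59 to 43.95 RPKM over the 8 libraries and not called. Other abundant genes without a call were Rdh11, Ncoa1, Meis1 and Nr2f2. Cyp26a1 was listed at 0 in all libraries, and neither it nor Cyp26c1, the other enzymes of this family, was tested.

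**Figure D4:**
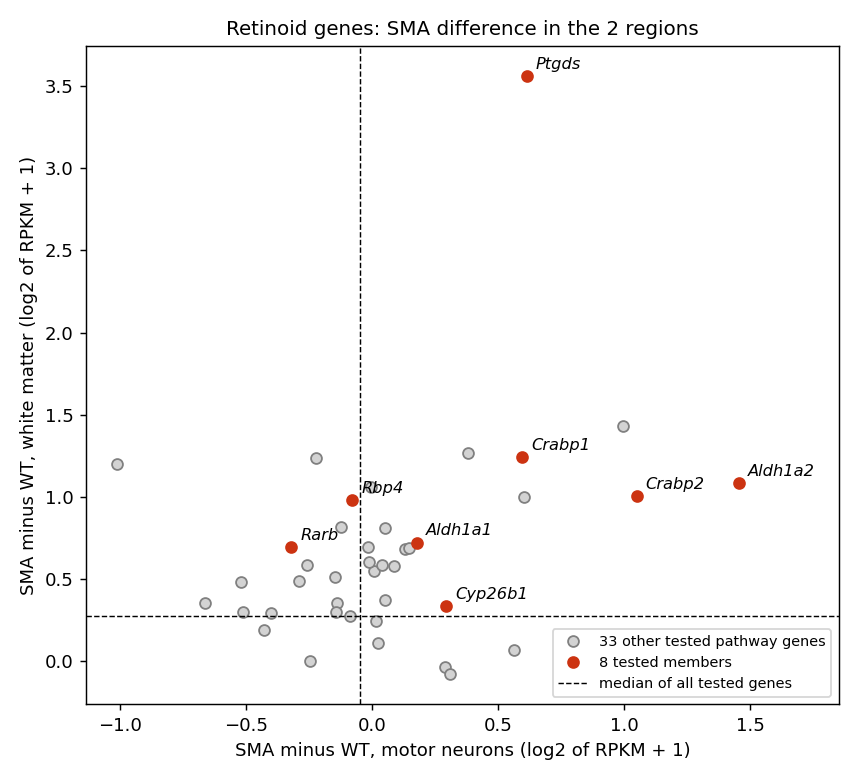
SMA minus WT difference in log2(RPKM + 1) in motor neurons (horizontal axis) and in white matter (vertical axis) for the 8 tested members (red, named) and 33 other tested retinoid genes (grey); dashed lines are the medians of all tested genes. Ptgds is at 3.56 on the white matter axis, above all other genes plotted, and Aldh1a2 lies farthest right at 1.46, a value that rests on 1 library.

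Ptgds is also an enzyme of prostaglandin synthesis, and of 25 genes that make, break down or sense prostaglandins 19 were tested. In white matter 0 were called, the median log2 difference was 0.21 against 0.27 over all genes, and 6 of the 19 had both SMA libraries above both WT ones, against 39.7% of all genes. Hpgds, the other prostaglandin D synthase, was at 1.66 and 2.29 in WT and 2.61 and 1.55 RPKM in SMA white matter, so the groups overlapped (log2 difference 0.03, limma adjusted p = 0.990). The prostaglandin D2 receptors Ptgdr and Ptgdr2 reached at most 1.54 and 1.47 RPKM and were not tested. By region in WT, Ptgs2, Ptges2, Cbr1 and Ptger4 were higher in motor neurons and Pla2g4a, Hpgds and Tbxas1 lower. Of all tested genes 18.6% were called higher and 9.85% lower there. Ptgs2 reached 1 RPKM only in WT motor neurons, so it entered the test through the group where it was high. In SMA, Ptges2, Cbr1, Ptger3 and Ptger4 were higher and Pla2g4a, Hpgds and Ptgr2 lower, where 13.6% and 17.2% of all tested genes were. Ptger3 and Ptger4 reached 1 RPKM only in motor neurons, and Pla2g4a and Hpgds only in white matter. Like Ptgs2, they entered the test through the group where they were high. Cbr1, which reduces prostaglandins, was the most abundant, at 21.9 and 24.2 RPKM in WT motor neurons and 10.2 and 8.11 in WT white matter (1.25 ± 0.32, limma adjusted p = 0.0171).

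Of 7 other lipocalins 5 were tested and 0 were called between genotypes. Apod, a lipocalin of glia and fibroblasts that carries small lipids, had the pattern nearest to Ptgds among them. It was at 31.8 and 22.4 RPKM in WT and 79.4 and 47.8 in SMA white matter (log2 difference 1.18, limma adjusted p = 0.762), and at 8.31 RPKM in SMA motor neuron replicate 1 against 0.150 to 1.73 in the other motor neuron libraries. It was lower in motor neurons in WT (-3.72 ± 0.79, limma adjusted p = 0.00678) and in SMA (-4.26 ± 0.79, limma adjusted p = 0.00375). Orm2 and C8g, the next most abundant, reached at most 4.61 RPKM and were not called.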

How the data were processed

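Total RNA from 8 laser-captured samples was profiled by RNA-seq. For each library the authors deposited RPKM values by gene symbol. The submitters' processing notes name TopHat, bedtools, DESeq and the genome build mm9. Tool versions, annotation, how reads were counted and whether strand was used are not given in the sources used, so genes that overlap others or have near-identical copies are uncertain. Per the labels' protocols, RNA was purified with an RNeasy Plus Micro kit and amplified to double-stranded cDNA with a NuGEN kit, so reads are amplified copies and not independent molecules. Floors of 3 reads cover counting error only.

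Whole reads were worked out from the RPKM steps. Among 17431 genes with values above 0 in 3 or more libraries, 17430 (99.99%) had a length that turned every value into whole reads, to a tolerance of 0.001 read. On simulated data all 8 library sizes and 99.4% of 1000 lengths were exact. Per library, the RPKM values had been divided by 77.5 to 102.8 M reads. The reads summed over genes were 68.5 to 98.6 M and exceeded this number in the 4 motor neuron libraries.

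The model was limma 3.58.1 (R 4.3.3), fitted to log2(RPKM + 1) of the 13948 genes with at least 1 RPKM in at least 2 libraries. Means of the 4 groups were fitted to all 8 libraries, using eBayes with trend. For each of 5 contrasts, two-sided p-values received Benjamini-Hochberg adjustment. Tested on simulated data with 200 changed genes, the fit found, in white matter, 3.64% of those with a log2 rise of 1, 47.9% at 2 and 89.7% at 4, and 6.11% of its calls were false. For motor neurons it recovered 3.03%, 40.6% and 90.9%, with 3.3% of calls false. Reading, read recovery and plots were done in Python 3.11.15 (matplotlib 3.10.9, numpy 2.4.6, pandas 2.3.3).

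The members and gene lists were chosen with earlier results of these data known. All 9 members are given in every library. From the pathway, prostaglandin and lipocalin lists, genes called in any contrast and the 3 of highest mean RPKM per list are named, and a few that meet the rule are not reported here. Stated examples beyond that rule (Ttr, Ptgdr, Ptgdr2, Cyp26a1, Cyp26c1, Dcn, Dpp4, Ogn, Mgp, Slc6a13, Slc13a4) were chosen after their values were seen. Alike genes are the 5 with the highest Pearson correlation. Cell marker lists covered motor neuron, myelinating oligodendrocyte, oligodendrocyte precursor, spinal interneuron, astrocyte, microglia, endothelium, pericyte, meninges and fibroblast, choroid plexus and ependyma, Schwann cell and red blood cell. Alternatives tried were other pseudocounts, filters, scalings, eBayes without trend, a replicate block, voom on recovered reads, fits of the compared libraries alone and each library left out.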

Additional observations from a re-analysis of the deposited data

How the results depend on the processing

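Of 18 alternative settings, most left the members' values as they were: 80 recomputed counts stayed within 1.5 times and 9 did not. Of the single values, 560 kept their direction and side of the threshold. Another 19 lost a call, 6 gained one, 5 untested ones moved and 11 changed sign. Calls of Ptgds in white matter or in the interaction, given next, describe its choice and are no test. In white matter the count of members called, 0, became 1 (Ptgds) with a pseudocount of 5 RPKM, quantile normalization, voom and the compared libraries alone, and leaving out single libraries gave 0 to 1, the 1 without SMA motor neuron replicate 1 or 2. In motor neurons it stayed at 0 (range 0 to 0). For WT regions the range was 4 to 5, and for SMA regions 4 to 7, with 4 without SMA white matter replicate 2 and also 4 without a filter on low values. For the interaction it was 0 to 1, Ptgds without SMA motor neuron replicate 1. The cause was not tested.

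Motor neuron differences that changed sign were Ptgds, -0.16 without SMA replicate 1 (leaving out single libraries gave -0.16 to 1.39), and Rbp4, 0.17 with a pseudocount of 0.1 RPKM, 0.089 after quantile normalization, 1.99 with voom, 0.49 without WT replicate 2 and 0.30 without SMA replicate 1 (-0.65 to 0.49). Aldh1a1 was -0.48 without WT replicate 2 and -0.0033 without SMA replicate 2 (-0.48 to 0.84), and Rarb was 0.35 without SMA replicate 1 (-0.99 to 0.35). Between WT regions Rbp4 was 0.11 without WT motor neuron replicate 1 (-1.02 to 0.11), and between SMA regions Aldh1a2 was 0.99 without SMA motor neuron replicate 2 (-1.92 to 0.99). The cause was not tested. Crabp1 in white matter was 0.92 after median-of-ratios scaling.

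Over all genes, calls in motor neurons went from 0 to 122 without SMA motor neuron replicate 1, and in the interaction from 0 to 17. Same-numbered replicates did not deviate together (correlations -0.343 to 0.0805) and were not treated as pairs, although the number goes with sex in all 4 groups, by Xist and Ddx3y. With the replicate block the members called were 0 in white matter, 0 in motor neurons, 4 between WT regions, 7 between SMA regions and 0 in the interaction. The interaction was not run on compared libraries alone, since it uses all 4 groups. Depth does not limit Ptgds or Crabp1, at 372 reads or more in every library, but Rbp4, Aldh1a2 and Aldh1a3 had 0 to 8 reads in some.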

Other observations

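Genes with profiles most like Ptgds over the 8 libraries were Igf1r, Zcchc14, Ndrg2, Lamb1 and Igfbp3 (Pearson r of log2(RPKM + 1) from 0.973 to 0.986, n = 8, a description shaped by the 2 SMA white matter libraries). Lamb1, a basement membrane laminin, was at 1.92 and 1.76 RPKM in WT and 6.07 and 4.43 in SMA white matter. Igfbp3, a secreted growth factor binder, was at 5.29 and 6.31 against 11.5 and 12.1 RPKM, and Ndrg2, abundant in astrocytes, at 213.5 and 252 against 406 and 376. None of these differs as far as Ptgds. The nearest genes to Crabp1 were Otub1, Ddx24, Atp6v1g2, Limk2 and Ube2z (r from 0.994 to 0.996), and among the members Cyp26b1 (0.978), Crabp2 (0.945) and Rarb (0.910), all set by the step between regions. Ptgds and Crabp1 themselves were not alike over the libraries (r = -0.49). The nearest to Aldh1a1 were Fndc1, Rell1, Dpy19l3, Gatad2b and Gulp1 (r from 0.969 to 0.982).

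Markers of red blood cells summed to 1467 and 598 RPKM in WT and 1009 and 3726 in SMA white matter, of astrocytes to 1105 and 1251 against 1625 and 1380, of microglia to 271 and 276 against 355 and 414, and of endothelium to 19.8 and 14.4 against 41.9 and 24.9. Oligodendrocyte precursor markers summed to 439 and 364 against 637 and 473.5 RPKM. These sums are on the deposited scale, which leaned upward in white matter. After median-of-ratios scaling the astrocyte, microglia and oligodendrocyte precursor sums overlapped between genotypes, and the endothelium sums stayed apart. Scaled astrocyte sums were 1199 and 1350 in WT against 1355 and 1220 in SMA white matter. Spinal interneuron markers summed to 65.1 and 40.4 in WT and 73.0 and 77.8 RPKM in SMA motor neuron captures, and to 3.72 to 12.6 in white matter.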
